A study of Mus musculus with 48 samples.

Results

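Genes of the circadian clock were examined in cultured kidney slices of the mouse: Arntl, Clock, Per1, Per2, Per3, Cry1, Cry2, Nr1d1, Nr1d2 and Dbp. They are the 10 rows, of 55487 Ensembl IDs in the count table, whose IDs map to these symbols. Arntl is called Bmal1 in newer gene tables. All 10 passed the filter on low counts in every comparison, and the lowest count of any of them in any library was 44, for Per3.

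RNA-seq had been performed on 48 libraries of kidney slices kept outside the body, from males of 2 inbred mouse strains, C57BL/6J and DBA/2J, for which the labels name no engineered allele. In each strain, 3 libraries were made from each of 8 conditions. These were control slices at 6 h and at 24 h, slices with tunicamycin (an inhibitor of protein N-glycosylation) at 6 h and at 24 h, slices with cyclosporin A (a calcineurin inhibitor) at 6 h and at 24 h, slices under normoxia, which the labels call an ischemia model, and slices under normoxia-hyperoxia, which they call a reperfusion model. The titles give both oxygen conditions as 24 h. How old the mice were, what doses were used, how much oxygen the controls received and at what hour of day slices were cut is not given in the sources used here. The oxygen conditions stand in another part of the study than the controls, by their titles, and have no controls of their own, so the condition and that part of the study cannot be told apart. The labels number the biological replicates 1 to 3 without saying that each is a separate mouse, and p-values measure only the spread between these libraries.

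The clock is a transcriptional feedback loop that runs in almost every cell. The proteins of Arntl and Clock form an activator that binds E-box sequences and switches on the Per and Cry genes, whose proteins return to the nucleus and block that activator. The same activator drives Nr1d1 and Nr1d2, which encode the nuclear receptors REV-ERB alpha and REV-ERB beta and repress Arntl, and Dbp, which encodes a factor that binds D-box sequences and is a classical readout of the loop's activity. In a running clock Arntl transcripts peak at the time of day when Dbp and Nr1d1 transcripts are lowest. Per1 and Per2 also respond directly to glucocorticoids and to cAMP. In the kidney the clock is known for daily rhythms in sodium and water transport.

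The promoters of 5 members are shown because Cry1, Per1, Nr1d1 and Cry2 had the 4 largest falls among the members under normoxia against 24 h controls, and Per3 was the only member that rose over both strains. Each line is the 250 bases before the transcription start in RefSeq (build GRCm38.p6), written 5′ to 3′ on the strand of the gene. Capitals mark matches to an E-box (CACGTG), to the related E-prime box (CACGTT, written AACGTG where it lies on the other strand) or to a D-box (TTATGNAA), searched on both strands. The windows are chr11:69098699-69098948 on the plus strand for Per1 and, on the minus strand, chr10:85185055-85185304 for Cry1, chr2:92434070-92434319 for Cry2, chr11:98775378-98775627 for Nr1d1 and chr4:151044666-151044915 for Per3.
Per1: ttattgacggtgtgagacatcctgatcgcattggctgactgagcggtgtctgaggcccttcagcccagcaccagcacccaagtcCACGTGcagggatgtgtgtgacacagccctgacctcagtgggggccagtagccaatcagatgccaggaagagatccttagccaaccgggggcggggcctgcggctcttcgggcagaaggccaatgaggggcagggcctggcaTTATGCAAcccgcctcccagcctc
Cry1: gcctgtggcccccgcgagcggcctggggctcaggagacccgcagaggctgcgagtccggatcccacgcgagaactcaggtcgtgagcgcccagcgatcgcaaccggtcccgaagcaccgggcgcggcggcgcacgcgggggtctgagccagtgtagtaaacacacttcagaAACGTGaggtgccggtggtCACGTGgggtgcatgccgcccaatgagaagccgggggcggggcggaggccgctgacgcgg
Cry2: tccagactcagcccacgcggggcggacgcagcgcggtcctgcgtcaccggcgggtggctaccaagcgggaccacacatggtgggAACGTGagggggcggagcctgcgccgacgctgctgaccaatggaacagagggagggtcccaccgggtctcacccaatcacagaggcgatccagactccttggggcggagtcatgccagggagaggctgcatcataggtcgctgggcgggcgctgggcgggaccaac
Nr1d1: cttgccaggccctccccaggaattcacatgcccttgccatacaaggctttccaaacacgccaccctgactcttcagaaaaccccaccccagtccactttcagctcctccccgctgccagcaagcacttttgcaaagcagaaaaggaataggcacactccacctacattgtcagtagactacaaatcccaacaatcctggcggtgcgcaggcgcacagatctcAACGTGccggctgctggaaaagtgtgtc
Per3: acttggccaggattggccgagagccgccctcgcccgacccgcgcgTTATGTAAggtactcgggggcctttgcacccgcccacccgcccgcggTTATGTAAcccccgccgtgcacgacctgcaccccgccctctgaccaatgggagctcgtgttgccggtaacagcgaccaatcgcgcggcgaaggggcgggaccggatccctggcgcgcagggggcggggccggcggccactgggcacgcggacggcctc
Per1 and Cry1 held an E-box, at 166 and 60 bases before the start. Cry1, Cry2 and Nr1d1 held an E-prime box, at 79, 166 and 28 bases before it. Per1 held a D-box at 24 bases before the start, and Per3 held a pair of D-boxes at 205 and 158 bases before it. Of the 32851 promoter windows of 300 bases in the RefSeq table, 7.15% held the E-box, 4.68% the E-prime box, 11.4% either of them and 3.38% the D-box. None of these letters stood in the windows of Arntl, Clock, Nr1d2 and Dbp, which says nothing of sites elsewhere in those genes. RefSeq windows were matched for 9 of the 10 members, all but Per2. RefSeq gives Per1 another start, whose window at chr11:69099902-69100201 held none of these 3 motifs. A match is a description of the sequence and not a measured binding site.

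Total counts ranged from 5619309 in replicate 2 of DBA/2J under normoxia-hyperoxia, with the next lowest at 12384733, to 25137581. Levels are given as CPM, the count of a gene scaled to a library size of 1000000 after TMM factors, which set libraries to a common level over most genes, were applied. Every gene of 9 marker lists for kidney cell types had counts in every group. The summed level of 5 proximal tubule markers (Lrp2, Cubn, Slc34a1, Slc5a2 and Slc22a6), none of them at 0 over a whole group, moved widely between the groups compared here. It spanned 2423.5 to 4857.7 CPM in C57BL/6J and 5345 to 6303.9 CPM in DBA/2J at 6 h, and 315 to 497 and 732 to 1644 CPM at 24 h. It spanned 4400.5 to 7173 and 11947 to 13285 CPM under normoxia, and 124 to 180.1 and 537 to 788 CPM under normoxia-hyperoxia. Markers of the distal nephron moved as well, given here for 6 h, 24 h, normoxia and normoxia-hyperoxia in that order. Principal cell markers spanned 405 to 497, 141 to 231, 442 to 491 and 655 to 738 CPM in C57BL/6J, and 307 to 402, 123 to 182, 196 to 259 and 367 to 553 CPM in DBA/2J. Intercalated cell markers spanned 325 to 362, 52.8 to 65.4, 371 to 441 and 388 to 701 CPM in C57BL/6J, and 223 to 259, 31.3 to 60.5, 167 to 229 and 295 to 469 CPM in DBA/2J. Distal convoluted tubule markers spanned 4588 to 5115, 685 to 1101, 3248 to 4470.2 and 4704 to 7684 CPM in C57BL/6J, and 3900.1 to 5161, 1402 to 1861, 1818 to 2489 and 6326 to 7665 CPM in DBA/2J. Loop of Henle markers spanned 8542 to 10067, 1590 to 4001, 8580 to 14930 and 5686 to 17614 CPM in C57BL/6J, and 3427 to 5687, 723 to 2679, 2054 to 4262 and 5643 to 7882 CPM in DBA/2J. These 4 lists were lower at 24 h than at 6 h, as the proximal list was. Under normoxia-hyperoxia they were above the 24 h controls, while the proximal list was below them in C57BL/6J and overlapped them in DBA/2J. Over the control and oxygen groups, markers of endothelium ranged from 214 to 1177 CPM, of podocytes from 467 to 2132, of fibroblasts and mural cells from 27.2 to 231 and of leukocytes from 77.5 to 222 CPM. In the same order of conditions, endothelium markers spanned 788 to 1177, 825 to 1079, 410 to 581 and 747 to 1054 CPM in C57BL/6J. In DBA/2J they spanned 464 to 671, 423 to 710, 214 to 361 and 692 to 945 CPM. They were thus lower under normoxia than at 24 h in both strains. Mitochondrial transcripts took 15.4% ± 0.783 and 8.16% ± 0.145 of counts at 6 h, 6.83% ± 0.970 and 3.52% ± 0.116 at 24 h, 23.9% ± 1.55 and 12.3% ± 0.534 under normoxia, and 14.1% ± 2.32 and 13.7% ± 3.30 under normoxia-hyperoxia, in C57BL/6J and DBA/2J respectively (SD, n = 3). The part of these shifts in the values below was not tested. In whole slices, fewer cells of a type and less RNA per cell cannot be told apart.

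Per length of transcript, Nr1d1 had the highest mean of the 10 members in all 16 groups and Per3 the lowest in all but C57BL/6J normoxia, where Cry1 at 1.05 CPM per kilobase of exon stood below Per3 at 1.85. In C57BL/6J 6 h controls Nr1d1 reached 230.1 ± 17.2 CPM per kilobase of exon, Per1 44.7 ± 6.58, Nr1d2 22.7 ± 4.69 and Dbp 21.8 ± 0.854 (SD, n = 3). Cry1 followed at 10.6 ± 3.30, Cry2 at 9.91 ± 1.33, Per2 at 7.69 ± 0.555, Clock at 4.996 ± 0.657, Arntl at 2.73 ± 0.312 and Per3 at 0.811 ± 0.136 CPM per kilobase (SD, n = 3). Nr1d2 and Dbp, and Cry1 and Cry2, lay closer to each other than their spread. At 24 h the order of C57BL/6J controls was the same at both ends, with Nr1d1 at 140.3 ± 15.7 and Per3 at 0.533 ± 0.101, while Cry1 at 12.9 ± 0.871 stood above Dbp at 9.16 ± 0.424 CPM per kilobase (SD, n = 3). The exons of Nr1d1 share 263 bases (8.55% of its exon length) with Thra on the opposite strand, and those of Dbp share 539 bases (18%) with Sphk2. The libraries were stranded, but the strand setting of the counting is not given, so reads in those stretches carry that uncertainty.

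**Figure D1:**
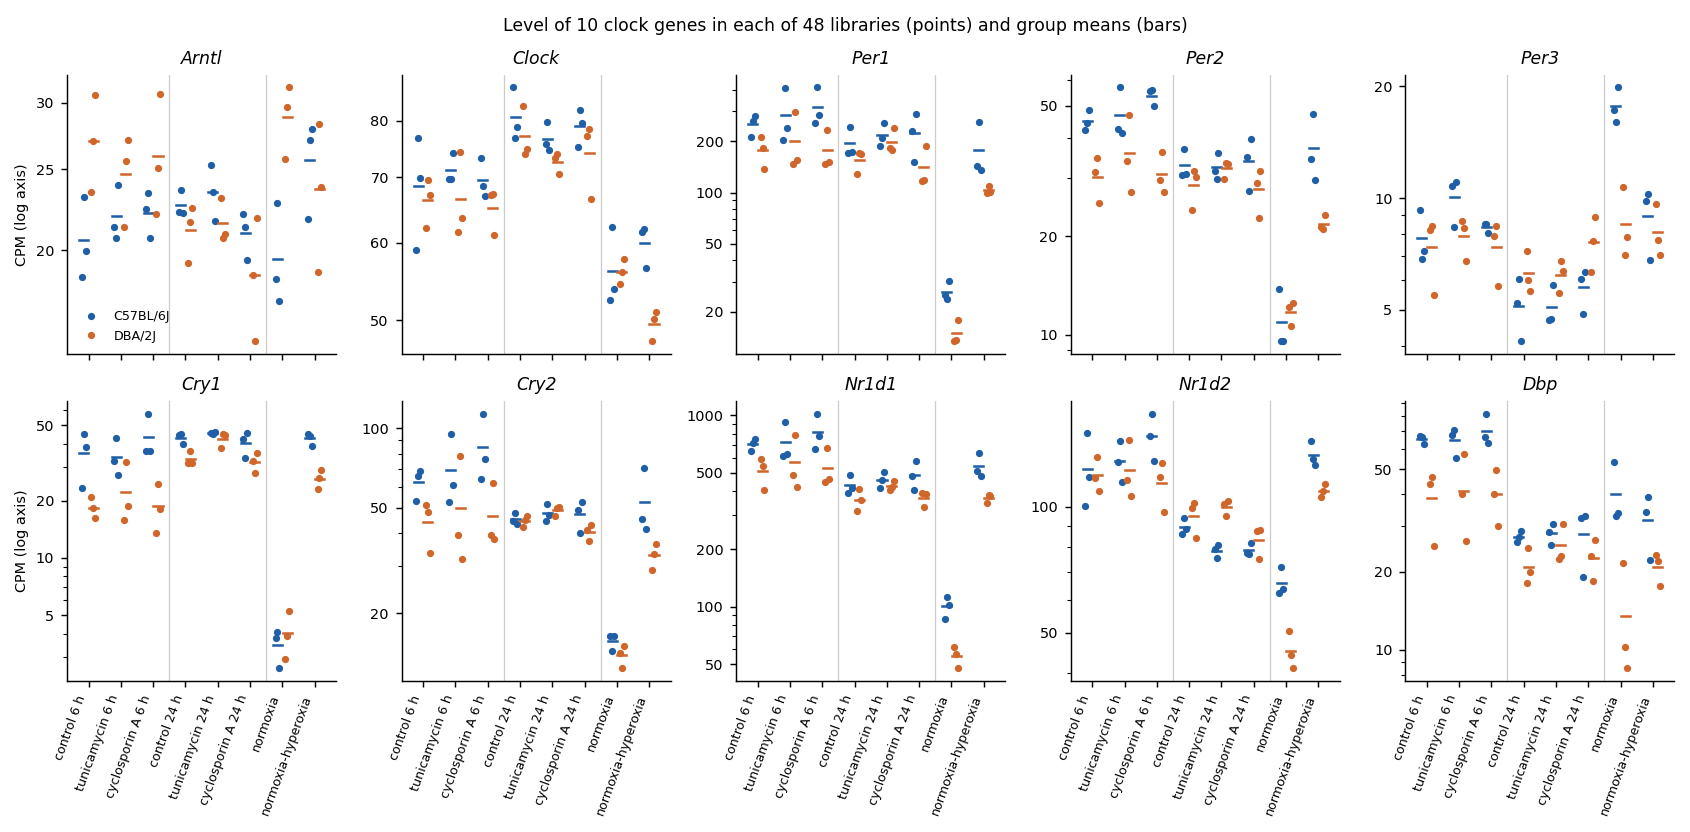
CPM (log axis, with its own range in each panel) of the 10 clock genes in all 48 libraries, by condition. Points are libraries, bars are the means of 3 libraries, and colors are the strains. Per1, Per2, Cry1, Cry2 and Nr1d1 sit lowest under normoxia in both strains (Cry1 between 2.64 and 5.28 CPM in the 6 libraries), and the Dbp means of the 6 h groups lie above those of the 24 h control and drug groups of the same strain.

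The first comparison asked how the clock genes changed in control slices between 6 h and 24 h of culture. Dbp, Nr1d1, Nr1d2, Per2, Per3 and Cry2 were lower at 24 h, and Cry1 and Clock were higher. These 8 of 10 genes passed the test (edgeR's quasi-likelihood test, mean over the strains, Benjamini-Hochberg adjusted p under 0.05 over all genes). Of all 16962 genes tested, 72.0% passed, 34.7% of them higher and 37.4% lower as shares of the genes tested, so the number that passed among the clock genes was close to that among all genes. The median log2 fold change was -0.29 over the 10 genes and -0.02 over all genes.

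Dbp measured 67.2, 66.4 and 62.4 CPM in the C57BL/6J 6 h libraries and 26.2, 27.3 and 28.7 CPM at 24 h. The DBA/2J libraries held 43.9, 46.6 and 25.2 CPM at 6 h and 18.1, 24.8 and 20.1 CPM at 24 h. All 24 h libraries lay below all 6 h libraries of their strain, although replicate 3 of the DBA/2J 6 h controls came within 1 CPM of the 24 h range. Dbp fell 2.12-fold, a log2 change of -1.09 (SE 0.131, edgeR adjusted p = 5.69e-06).

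Nr1d1 measured 650.2, 721 and 753 CPM at 6 h in C57BL/6J and 392, 485 and 417 CPM at 24 h. In DBA/2J the values were 589.8, 544 and 407 CPM at 6 h and 314, 413 and 362 CPM at 24 h. The times were separate in C57BL/6J and overlapped in DBA/2J through replicate 3 at 6 h, the same library that was low for Dbp. Nr1d1 fell by 0.63 on the log2 scale (SE 0.0989, edgeR adjusted p = 4.47e-05), and Nr1d2 fell by 0.41 (SE 0.0909, edgeR adjusted p = 0.000956).

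Among the repressors, Cry1 went the other way. In C57BL/6J it measured 23.3, 44.8 and 38.4 CPM at 6 h and 44.3, 44.9 and 39.6 CPM at 24 h, and in DBA/2J 20.9, 18.2 and 16.1 CPM at 6 h and 31.5, 36.5 and 31.5 CPM at 24 h. The DBA/2J groups were clearly apart and the C57BL/6J groups overlapped. Cry1 rose by 0.54 on the log2 scale (SE 0.129, edgeR adjusted p = 0.00182). Per2 changed by -0.29 (edgeR adjusted p = 0.0117), Per3 by -0.43 (edgeR adjusted p = 0.0150) and Cry2 by -0.25 (edgeR adjusted p = 0.0299), while Per1 at -0.29 did not pass (edgeR adjusted p = 0.0563). The fall of Cry2 was the least firm of these: leaving out C57BL/6J 6 h replicate 3, DBA/2J 6 h replicate 1 or 2, C57BL/6J 24 h replicate 1 or 3, or DBA/2J 24 h replicate 1 raised its adjusted p to between 0.0585 and 0.0867. Cry2 was also lost with all 48 libraries in the fit (-0.23, edgeR adjusted p = 0.235). Per1 passed without C57BL/6J 6 h replicate 1 (-0.36), DBA/2J 6 h replicate 3 (-0.37) or C57BL/6J 24 h replicate 2 (-0.39). It also passed when genes with low counts were not filtered out (-0.31, edgeR adjusted p = 0.000446).

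Of the activator pair, Clock rose by 0.21 (SE 0.0704, edgeR adjusted p = 0.0154). Arntl changed by -0.12 over the strains (edgeR adjusted p = 0.192), with values of 18.6, 23.2 and 19.96 CPM at 6 h and 22.2, 23.6 and 22.2 CPM at 24 h in C57BL/6J. DBA/2J libraries held 23.5, 27 and 30.7 CPM at 6 h and 19.3, 21.6 and 22.5 CPM at 24 h, all below the 6 h values. The difference between the strains' changes of Arntl was -0.51 and did not pass (edgeR adjusted p = 0.197).

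None of the 10 strain differences in the 24 h against 6 h change passed with edgeR (3 at an unadjusted p under 0.05) or with DESeq2, where 0.690% of all genes passed with edgeR, 0.419% higher and 0.271% lower. With plain library totals in place of TMM scaling, the median log2 fold change of all genes moved from -0.02 to 0.19 and the share of higher genes among those that passed from 48.1% to 60.4%. Under that scaling 12549 of 16962 genes passed, and 4 members: Clock, Cry1, Nr1d1 and Dbp. With a single pair of times, time in culture and clock phase cannot be told apart.

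**Figure D2:**
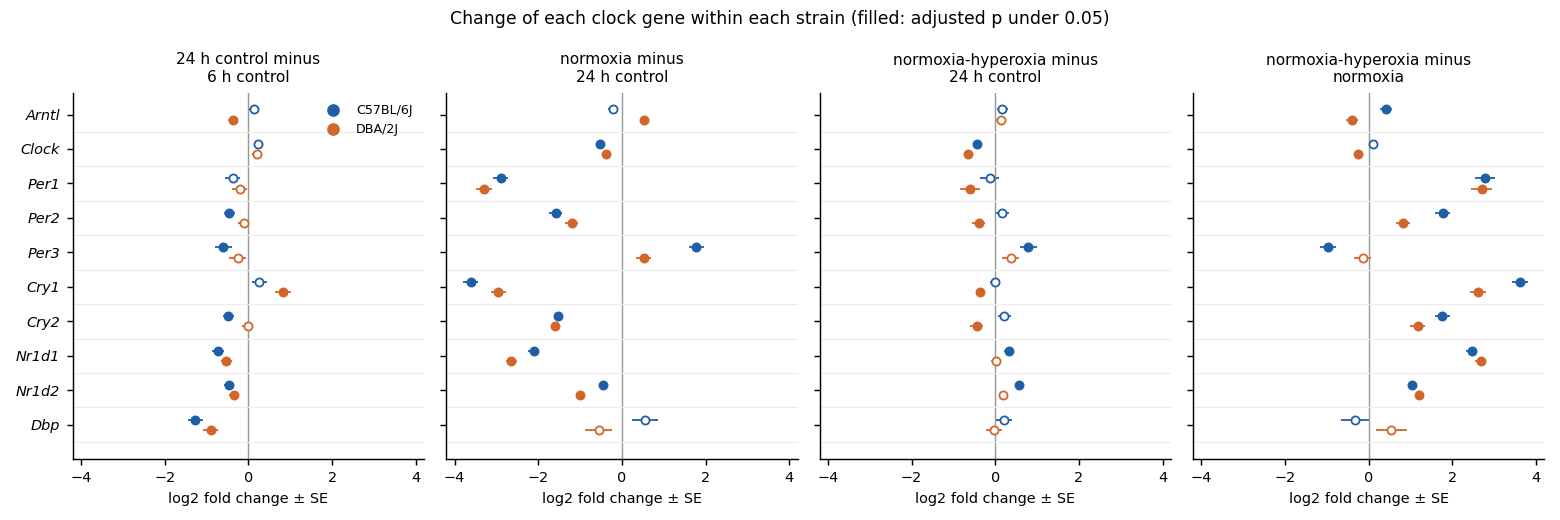
Log2 fold change with its SE of each clock gene within each strain, in 4 comparisons. Filled points passed an adjusted p under 0.05 within that strain. Per1, Per2, Cry1, Cry2 and Nr1d1 lie far left under normoxia against 24 h controls and far right under normoxia-hyperoxia against normoxia, while Per3 does the reverse in C57BL/6J.

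Under normoxia Cry1, Per1, Nr1d1, Cry2, Per2, Nr1d2 and Clock fell against 24 h controls, and Per3 rose. Arntl and Dbp did not pass over both strains. Of all 17375 genes tested, 82.0% passed, 42.4% higher and 39.7% lower, so 8 of 10 is close to the share of all genes. The 7 that fell stand beside 39.7% of all genes. The median log2 fold change was -1.05 over the 10 genes and 0.05 over all genes.

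Cry1 showed the largest change among the 10 genes. It measured 44.3, 44.9 and 39.6 CPM in C57BL/6J controls at 24 h and 3.79, 4.07 and 2.64 CPM under normoxia, and in DBA/2J 31.5, 36.5 and 31.5 against 2.94, 3.87 and 5.28 CPM. Every normoxia library lay far below every control library. Cry1 fell 9.73-fold, a log2 change of -3.28 (SE 0.125, edgeR adjusted p = 1.66e-12).

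Per1 measured 171, 244 and 172 CPM in C57BL/6J controls and 25.0, 23.7 and 30.3 CPM under normoxia. The DBA/2J values were 128, 171 and 168 CPM in controls and 13.4, 13.7 and 17.8 CPM under normoxia. The groups did not overlap in either strain, and the fall was 8.53-fold (log2 fold change -3.09, SE 0.130, edgeR adjusted p = 2.26e-10). Per2 also fell. Its C57BL/6J values were 30.8, 36.9 and 31 CPM in controls against 13.8, 9.53 and 9.55 CPM under normoxia, and those of DBA/2J were 24.0, 31.6 and 30.2 against 12.1, 10.6 and 12.5 CPM. The fall was 2.62-fold (log2 fold change -1.39, SE 0.107, edgeR adjusted p = 5.65e-09).

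Cry2 measured 44.7, 47.6 and 43.5 CPM in C57BL/6J controls and 16.4, 14.4 and 16.4 CPM under normoxia, and 42.4, 45.1 and 46.6 against 14.1, 12.4 and 14.9 CPM in DBA/2J. The changes in the 2 strains were nearly the same size, -1.53 and -1.61 on the log2 scale. Over both strains Cry2 fell 2.96-fold (log2 fold change -1.57, SE 0.0665, edgeR adjusted p = 3.42e-12).

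Per3 moved against the rest of its family. In C57BL/6J it measured 5.21, 6.05 and 4.11 CPM in controls and 17.3, 16.1 and 19.9 CPM under normoxia, with no overlap. DBA/2J controls held 7.21, 6.01 and 5.62 CPM against 10.7, 7.03 and 7.85 CPM, and these groups overlapped. The log2 fold change was 1.78 in C57BL/6J and 0.52 in DBA/2J, and the difference of -1.25 between them passed its own test (SE 0.250, edgeR adjusted p = 0.00365).

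Of the REV-ERB genes, Nr1d1 measured 392, 485 and 417 CPM in C57BL/6J controls and 86.2, 112 and 102 CPM under normoxia. The DBA/2J controls held 314, 413 and 362 CPM and the normoxia libraries 61.3, 56.2 and 47.7 CPM. It fell 5.19-fold (log2 fold change -2.37, SE 0.0922, edgeR adjusted p = 2.22e-12), with no overlap in either strain. Nr1d2, the REV-ERB beta gene, fell less. It measured 86.0, 93.9 and 88.6 CPM in C57BL/6J controls against 62.1, 71.8 and 63.6 CPM, and 99.4, 102 and 84.2 CPM in DBA/2J controls against 50.5, 44.1 and 41.2 CPM. Its change was -0.44 in C57BL/6J and -0.99 in DBA/2J, and the difference of -0.55 passed (SE 0.129, edgeR adjusted p = 0.00989).

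The activator genes changed little by comparison. Clock fell by 0.45 (SE 0.0560, edgeR adjusted p = 1.67e-06). Arntl, the target of REV-ERB repression, measured 22.2, 23.6 and 22.2 CPM in C57BL/6J controls and 18.5, 22.8 and 17.4 CPM under normoxia. In DBA/2J it measured 19.3, 21.6 and 22.5 against 25.7, 29.7 and 31.3 CPM, so that all normoxia libraries were above all controls in DBA/2J only. The log2 fold changes were -0.21 and 0.53, and their difference of 0.75 passed (SE 0.159, edgeR adjusted p = 0.00550). Over both strains the change of 0.16 did not pass (edgeR adjusted p = 0.0740), but passed without C57BL/6J normoxia replicate 3 (0.20) or DBA/2J normoxia replicate 1 (0.20).

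Dbp, the output gene, did not follow the repressors. It measured 26.2, 27.3 and 28.7 CPM in C57BL/6J controls and 53.3, 32.9 and 33.8 CPM under normoxia, all above the controls. In DBA/2J it measured 18.1, 24.8 and 20.1 against 21.6, 10.3 and 8.51 CPM, where 2 normoxia libraries were below all controls and replicate 1 was among them. The log2 fold change over the strains was 0.00 (-0.0017, SE 0.216, edgeR adjusted p = 0.997), and the strain difference of -1.11 did not pass with edgeR (SE 0.446, adjusted p = 0.119).

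In all, 3 of 10 strain differences passed for normoxia against 24 h controls, Arntl, Per3 and Nr1d2, where 17% of all genes passed, 10.1% higher and 6.88% lower. DESeq2 added Nr1d1 and Dbp. Without DBA/2J normoxia replicate 1, the library with the highest Dbp of its group, 6 passed: Arntl, Per3, Cry1, Nr1d1, Nr1d2 and Dbp. Without C57BL/6J normoxia replicate 1 the count was 5. With library totals in place of TMM the median of all genes moved from 0.05 to -0.22 and the share of higher genes among those that passed from 51.6% to 41.5%. Of all 17375 genes, 14295 passed under that scaling. The same 8 members passed in the same directions, and the change of Arntl, which did not pass, turned from 0.16 to -0.11.

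Under normoxia-hyperoxia against 24 h controls, Clock was lower, Per3 and Nr1d2 were higher, and Cry1 was slightly lower over both strains. These 4 of 10 passed, where 68.2% of 17256 genes passed, 34.1% higher and 34.1% lower. The members' median log2 fold change was -0.01 and that of all genes 0.00. The strains' own values lay on opposite sides of 0 for Per2 (0.17 in C57BL/6J and -0.39 in DBA/2J) and Cry2 (0.21 and -0.45).

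Under normoxia-hyperoxia Clock measured 61.5, 62.0 and 56.6 CPM in C57BL/6J and 47.6, 50.2 and 51.0 CPM in DBA/2J. In 24 h controls it measured 86.5, 76.7 and 78.8 CPM and 82.8, 73.9 and 74.8 CPM in these strains, with no overlap. It fell by 0.54 (SE 0.0552, edgeR adjusted p = 5.33e-07). Nr1d2 rose by 0.38 (SE 0.0609, edgeR adjusted p = 5.74e-05), to 143, 129.99 and 126 CPM in C57BL/6J and 105, 109 and 113 CPM in DBA/2J, again with no overlap in either strain. Per3 rose by 0.58 (SE 0.143, edgeR adjusted p = 0.00222), with 9.81, 10.2 and 6.83 CPM in C57BL/6J above all its controls and 9.63, 7.69 and 7.04 CPM in DBA/2J overlapping them.

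Per1 and Cry2 in this comparison show a difference between libraries. Per1 measured 143, 258 and 135 CPM in C57BL/6J and 98.9, 110.0 and 101 CPM in DBA/2J, and Cry2 measured 45.3, 70.7 and 41.6 CPM and 29, 33.6 and 36.5 CPM. Replicate 2 was high for both genes in C57BL/6J, and all DBA/2J libraries were below all their controls. Over both strains Per1 changed by -0.37 (edgeR adjusted p = 0.0680). It passed without C57BL/6J normoxia-hyperoxia replicate 2 (-0.55, edgeR adjusted p = 0.000614) or DBA/2J 24 h replicate 1 (-0.44), and with DESeq2 (-0.35, adjusted p = 0.0434). Per1 also passed without the filter (-0.37, edgeR adjusted p = 2.97e-06) and with a block for replicate number (-0.38, edgeR adjusted p = 0.000327). The labels do not say that these numbers pair the libraries. Cry2 changed by -0.12 (edgeR adjusted p = 0.373) and passed without that C57BL/6J replicate 2 (-0.25, edgeR adjusted p = 0.00556).

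The small fall of Cry1 (-0.19, SE 0.0744, edgeR adjusted p = 0.0374) did not pass with DESeq2 (adjusted p = 0.0867). Nor did it pass with RLE factors (edgeR adjusted p = 0.0621), without the filter (edgeR adjusted p = 0.0706) or with all 48 libraries (edgeR adjusted p = 0.331). It was also lost without C57BL/6J 24 h replicate 1 or 2, DBA/2J 24 h replicate 2, C57BL/6J normoxia-hyperoxia replicate 3 or DBA/2J normoxia-hyperoxia replicate 1 or 2, with adjusted p between 0.0597 and 0.1099. Dbp measured 34, 38.8 and 22.2 CPM in C57BL/6J and 23.3, 22 and 17.6 CPM in DBA/2J and overlapped the controls in both. Nr1d1 changed by 0.18 (edgeR adjusted p = 0.0862), passing without DBA/2J 24 h replicate 2 (0.22) or C57BL/6J normoxia-hyperoxia replicate 3 (0.22). Arntl changed by 0.15 (edgeR adjusted p = 0.170).

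No strain difference in this change passed among the 10 genes with edgeR (4 at an unadjusted p under 0.05) or with DESeq2, where 1.43% of all genes passed with edgeR, 0.950% higher and 0.481% lower. Without the shallow DBA/2J replicate 2 of normoxia-hyperoxia, 3 of the 10 passed over both strains. With library totals the median of all genes moved from 0.00 to -0.17 and the share of higher genes among those that passed from 49.96% to 39.01%. Under that scaling 12046 of 17256 genes passed, and 7 members: Clock, Per1, Per2, Per3, Cry1, Cry2 and Nr1d2.

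Set directly against normoxia, normoxia-hyperoxia libraries held more Cry1, Per1, Nr1d1, Cry2, Per2 and Nr1d2 and less Per3. These 7 of 10 passed, where 73.5% of 17228 genes passed, 37% higher and 36.5% lower. The median log2 fold change was 1.20 over the 10 genes and 0.02 over all genes. The comparison shares its normoxia libraries with that of normoxia against 24 h controls and its other libraries with that of normoxia-hyperoxia against 24 h controls.

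Cry1 measured 44.9, 43.9 and 38.9 CPM in C57BL/6J under normoxia-hyperoxia and 23, 26.2 and 29.1 CPM in DBA/2J, all far above the normoxia values. The log2 difference was 3.11 over the strains (SE 0.132, edgeR adjusted p = 1.70e-11), with 3.61 in C57BL/6J and 2.61 in DBA/2J. Per1 differed by 2.74 (SE 0.171, edgeR adjusted p = 3.66e-08). Nr1d1 measured 512, 639 and 483 CPM in C57BL/6J and 349, 384 and 379 CPM in DBA/2J and differed by 2.57 (SE 0.0927, edgeR adjusted p = 2.45e-12). Cry2 differed by 1.47, Per2 by 1.30 and Nr1d2 by 1.11.

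In this comparison 5 of 10 strain differences passed, where 18.2% of all genes passed, 7.20% higher and 11% lower: Cry1 (-1.001), Per2 (-0.95), Arntl (-0.80), Clock (-0.37) and Per3 (0.82). Per2 measured 34.5, 47.2 and 29.7 CPM in C57BL/6J under normoxia-hyperoxia and 21.4, 21 and 23.2 CPM in DBA/2J. Arntl measured 21.8, 27.1 and 27.9 CPM in C57BL/6J and 18.9, 28.3 and 23.8 CPM in DBA/2J. It was higher than under normoxia in C57BL/6J (0.41, edgeR adjusted p = 0.0248) and lower in DBA/2J (-0.39, edgeR adjusted p = 0.0290), with overlapping libraries in both.

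Several of these strain differences depend on single libraries. In the 12 fits that each left out a library, Clock passed only without C57BL/6J normoxia replicate 2, DBA/2J normoxia replicate 1 or C57BL/6J normoxia-hyperoxia replicate 3, and Per3 only without DBA/2J normoxia replicate 1, C57BL/6J normoxia-hyperoxia replicate 2 or DBA/2J normoxia-hyperoxia replicate 3. Leaving out any other single library raised the adjusted p of Clock to between 0.0611 and 0.113 and that of Per3 to between 0.0542 and 0.117. Per2 was lost without DBA/2J normoxia-hyperoxia replicate 1 (adjusted p = 0.0503) or 2 (adjusted p = 0.0509), and Cry1 without DBA/2J normoxia replicate 3 (adjusted p = 0.0532), all with edgeR. The calls also depended on the processing. With library totals, the strain differences of Arntl (-0.63, edgeR adjusted p = 0.0740), Cry1 (-0.83, edgeR adjusted p = 0.0555) and Clock (-0.20, edgeR adjusted p = 0.295) did not pass. With all 48 libraries, those of Cry1 (edgeR adjusted p = 0.101) and Clock (edgeR adjusted p = 0.122) did not. Clock was also lost with RLE factors (edgeR adjusted p = 0.0563) and without the filter (edgeR adjusted p = 0.247). Over both strains the same 7 members passed in all 12 fits that left out a library.

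Since the controls were taken at 2 times, the oxygen groups were also set beside the 6 h controls. Normoxia against 6 h controls gave 9 of 10 members that passed, all but Arntl, with Per3 higher and the others lower (65.8% of 16819 genes passed, 32.9% higher and 32.9% lower). Against 6 h controls, Dbp under normoxia was lower by 1.13 on the log2 scale (SE 0.238, edgeR adjusted p = 0.00158), whereas against 24 h controls its difference was 0.00. Nr1d1 was lower by 3.04, Per1 by 3.43 and Cry1 by 2.78. Normoxia-hyperoxia against 6 h controls gave 6 of 10, with Clock, Per1, Per2, Nr1d1 and Dbp lower and Cry1 higher (44.9% of 16841 genes passed, 22.4% higher and 22.5% lower). Dbp showed the largest of these, at -0.97 (SE 0.164, edgeR adjusted p = 0.000428). The rise of Cry1 at 0.38 (edgeR adjusted p = 0.0371) was lost without DBA/2J 6 h replicate 2 or 3, C57BL/6J normoxia-hyperoxia replicate 1 or 2, or DBA/2J normoxia-hyperoxia replicate 2 or 3, with adjusted p between 0.0655 and 0.0983. It was also lost with all 48 libraries in the fit (edgeR adjusted p = 0.0530). Cry2 at -0.35 did not pass (edgeR adjusted p = 0.0685). It passed without DBA/2J 6 h replicate 3 (-0.43, edgeR adjusted p = 0.0250) or C57BL/6J normoxia-hyperoxia replicate 2 (-0.49, edgeR adjusted p = 0.00380), without the filter (edgeR adjusted p = 0.000320) and with DESeq2 (adjusted p = 0.0493). These comparisons share libraries with those above and are no independent evidence.

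The ratio of Arntl to the genes its protein drives does not depend on how libraries are scaled, and is given as a description. The log2 ratio of Arntl to Dbp averaged -1.67 ± 0.168 in C57BL/6J 6 h controls and -0.27 ± 0.0876 at 24 h (SD, n = 3). In DBA/2J it averaged -0.47 ± 0.655 at 6 h, with replicate 3 at 0.28 and the others at -0.90 and -0.79, and 0.02 ± 0.192 at 24 h (SD, n = 3). The C57BL/6J groups were apart, and the DBA/2J groups overlapped through that replicate. Under normoxia the strains separated, at -1.01 ± 0.499 in C57BL/6J and 1.22 ± 0.858 in DBA/2J (SD, n = 3), with no overlap. Under normoxia-hyperoxia they averaged -0.27 ± 0.531 and 0.16 ± 0.406 (SD, n = 3) and overlapped each other and the 24 h controls.

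The log2 ratio of Arntl to Nr1d1 averaged -5.11 ± 0.140 at 6 h and -4.25 ± 0.1103 at 24 h in C57BL/6J, and -4.24 ± 0.467 and -4.10 ± 0.137 in DBA/2J (SD, n = 3). Under normoxia it stood at -2.36 ± 0.177 in C57BL/6J and -0.93 ± 0.324 in DBA/2J (SD, n = 3), above every other group of the 16. Under normoxia-hyperoxia it was -4.41 ± 0.256 and -3.99 ± 0.225 (SD, n = 3), near the controls. Both ratios thus ranked the groups differently: Arntl to Dbp put C57BL/6J normoxia between its 6 h and 24 h controls, and Arntl to Nr1d1 put it above both.

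**Figure D3:**
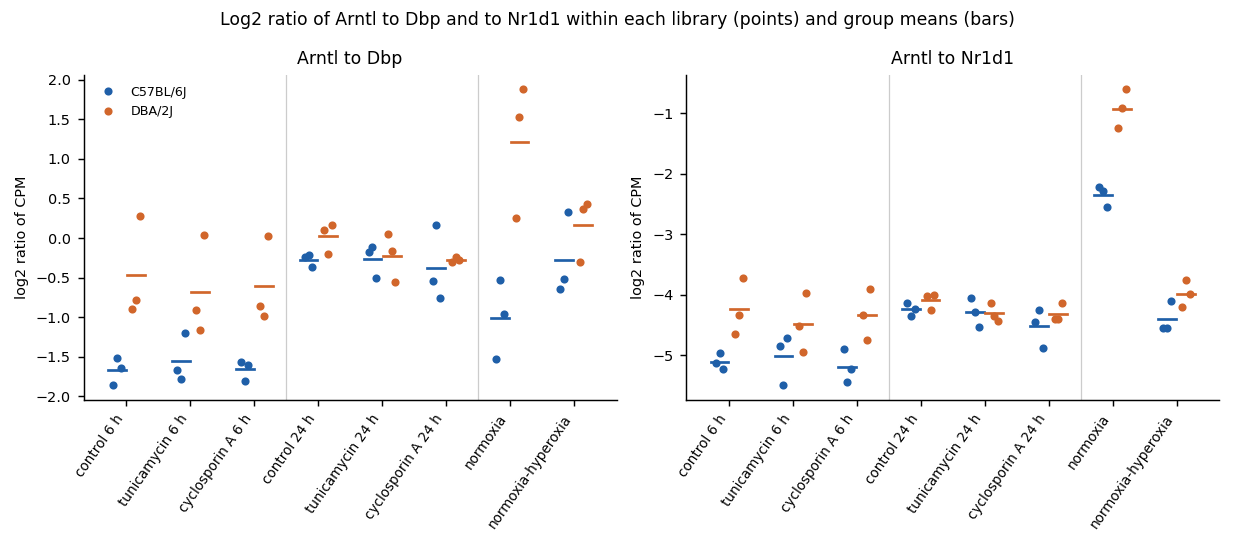
Log2 ratio of Arntl to Dbp (left) and of Arntl to Nr1d1 (right) in each of the 48 libraries (points), with the mean of 3 libraries (bars), by condition and strain. Normoxia libraries stand above all others for Arntl to Nr1d1, from -2.56 to -0.61, while for Arntl to Dbp those of DBA/2J reach 1.88 and those of C57BL/6J stay below 0.

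The strains were compared within each condition. In 6 h controls DBA/2J held more Arntl than C57BL/6J (0.42, SE 0.118, edgeR adjusted p = 0.0185) and less Cry1 (-0.92), Dbp (-0.74), Per2 (-0.55), Cry2 (-0.47) and Nr1d1 (-0.44). These 6 of 10 passed, where 26.2% of 16962 genes passed, 13.6% higher and 12.7% lower in DBA/2J. Cry1 measured 23.3, 44.8 and 38.4 CPM in C57BL/6J and 20.9, 18.2 and 16.1 CPM in DBA/2J, with no overlap (edgeR adjusted p = 0.00277). Per2 measured 42.1, 44.4 and 48.6 against 31.4, 34.6 and 25.2 CPM, also apart (edgeR adjusted p = 0.00725). Leaving out C57BL/6J replicate 3 or DBA/2J replicate 3 of the 6 h controls left 3 genes, Per2, Cry1 and Dbp. In the fits of the same 6 h controls with either drug 4 passed, Arntl, Per2, Cry1 and Dbp. With normoxia-hyperoxia libraries 4 passed, Per2, Cry1, Nr1d1 and Dbp, and with normoxia libraries 6, Arntl, Per1, Per2, Cry1, Cry2 and Nr1d1.

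At 24 h none of the 10 strain differences passed with edgeR (0 at an unadjusted p under 0.05) or with DESeq2, where 22.2% of all genes passed with edgeR, 13.9% higher and 8.27% lower. The largest were Dbp (-0.37, edgeR adjusted p = 0.184) and Cry1 (-0.36, edgeR adjusted p = 0.177). Each passed when a single 6 h library was left out of the shared fit, Cry1 without C57BL/6J 6 h replicate 1 and Dbp without DBA/2J 6 h replicate 3. In the fit of the same controls with normoxia-hyperoxia libraries, Cry1 at -0.39 passed (edgeR adjusted p = 0.0133). It also passed in the fits of these controls with the 24 h libraries of tunicamycin (-0.41, edgeR adjusted p = 0.00432) and of cyclosporin A (-0.40, edgeR adjusted p = 0.0400), and Dbp passed in the former (-0.42, edgeR adjusted p = 0.0478). The change in the strain difference between the times is the interaction given above, for which no member passed, so a loss of the difference from 6 h to 24 h was not shown.

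Under normoxia 6 of 10 strain differences passed, where 46.8% of 17228 genes passed, 28.3% higher and 18.5% lower in DBA/2J. Dbp was lower in DBA/2J by 1.49 (SE 0.355, edgeR adjusted p = 0.00627), Per3 by 0.97 (edgeR adjusted p = 0.000588), Nr1d1 by 0.78 (edgeR adjusted p = 0.000166), Per1 by 0.73 (edgeR adjusted p = 0.0288) and Nr1d2 by 0.46 (edgeR adjusted p = 0.000699). Arntl was higher by 0.64 (SE 0.145, edgeR adjusted p = 0.00219). The 3 DBA/2J libraries lay beyond all C57BL/6J libraries for each of these 6 genes. These genes had been picked by their test on the same libraries. The share of all genes so separated was not counted, so this describes the values and is no further evidence.

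Under normoxia-hyperoxia 7 of 10 passed, all lower in DBA/2J, where 25.7% of all genes passed, 14.3% higher and 11.3% lower. The differences were -0.81 for Per1, -0.77 for Per2, -0.72 for Cry1, -0.69 for Cry2, -0.56 for Nr1d1, -0.30 for Nr1d2 and -0.29 for Clock. Without DBA/2J normoxia-hyperoxia replicate 1, 3 passed: Per2, Cry1 and Nr1d1. Without the shallow replicate 2 of that group, 6 passed. In the fits of the same libraries with 24 h controls and with 6 h controls, 8 and 5 of 10 passed, all lower. Of all genes, 4087 of 17256 and 3526 of 16841 passed there. Proximal tubule markers were higher in DBA/2J in each of these 4 conditions. In 6 h controls, markers of the loop of Henle, principal and intercalated cells, podocytes and endothelium were lower in DBA/2J without overlap. The mitochondrial share was lower too. Markers of the distal convoluted tubule, of fibroblasts and mural cells and of leukocytes overlapped at 6 h. Under normoxia the markers of the loop of Henle, of principal and intercalated cells and of the distal convoluted tubule were lower in DBA/2J in every library. So were those of podocytes, at 467 to 586 against 814 to 1060 CPM, and the mitochondrial share. Endothelium markers were lower as well, at 214 to 361 against 410 to 581 CPM. Those of fibroblasts and mural cells (27.2 to 50.6 against 69.95 to 94.1 CPM) and of leukocytes (81.3 to 92.1 against 94.4 to 127 CPM) were too. The part of these shifts in the strain differences was not tested.

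**Figure D4:**
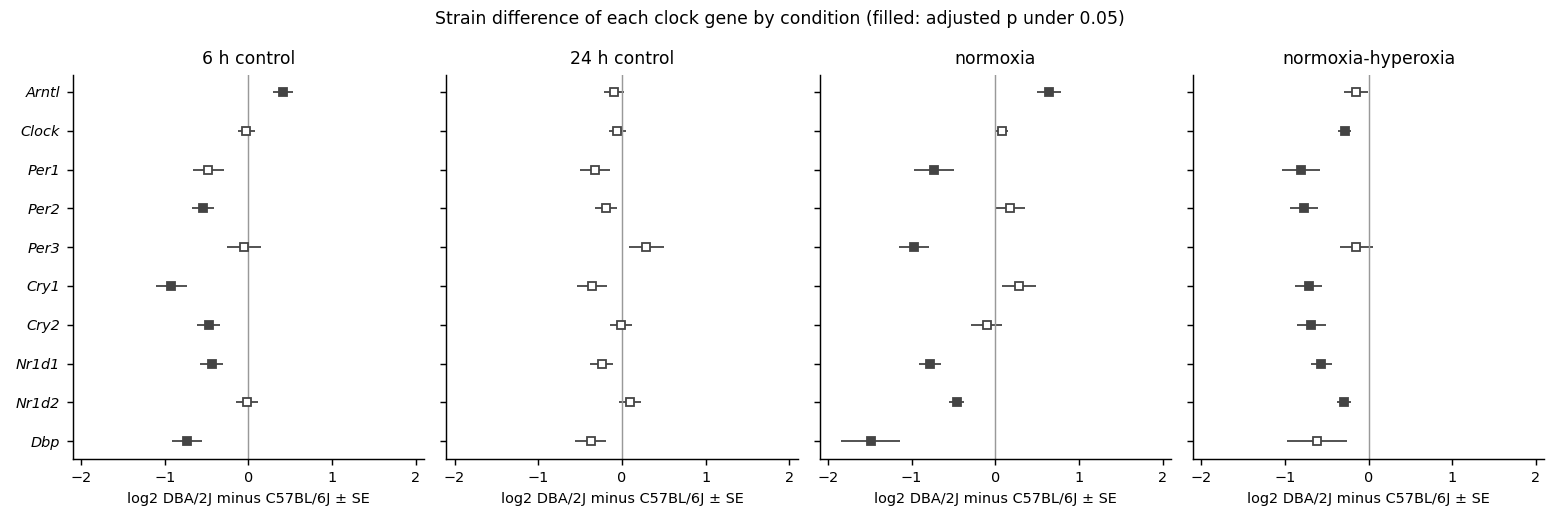
Log2 difference between DBA/2J and C57BL/6J, with its SE, for each clock gene in 4 conditions. Filled squares passed an adjusted p under 0.05. No square is filled at 24 h, Arntl lies to the right at 6 h and under normoxia, and the other filled squares lie to the left.

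Neither drug moved the clock genes past the threshold. With tunicamycin at 6 h, tunicamycin at 24 h, cyclosporin A at 6 h and cyclosporin A at 24 h, 0 of 10 members passed with edgeR and with DESeq2, with 0, 1, 0 and 1 at an unadjusted p under 0.05. Of all genes, 0%, 1.38%, 0% and 0% passed with edgeR. That was 0, 233, 0 and 0 genes, with 281, 2174, 734 and 1107 at an unadjusted p under 0.05 and 0, 536, 45 and 20 with DESeq2. The log2 fold changes of the members ranged from -0.02 to 0.23 and from -0.08 to 0.25 for tunicamycin at 6 h and 24 h, and from -0.01 to 0.24 and from -0.18 to 0.23 for cyclosporin A. Their SEs reached 0.214. The gene at an unadjusted p under 0.05 was Cry1 with tunicamycin at 24 h (0.22, SE 0.0614, edgeR adjusted p = 0.111), whose C57BL/6J values of 45.3, 45.2 and 46.1 CPM and DBA/2J values of 38.1, 44.8 and 44.5 CPM were above all their controls. With cyclosporin A at 24 h it was Nr1d2 (-0.18, SE 0.0625, edgeR adjusted p = 0.656). These single genes were named after their values were seen.

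Other parts of the clock machinery were followed with a list of 13 genes. It holds Npas2, a paralog of Clock, the activator Rora, the repressors Bhlhe40, Bhlhe41, Ciart and Nfil3, the D-box activators Tef and Hlf, and kinases and ubiquitin ligase subunits that act on the PER and CRY proteins. Every gene named from it and from the lists that follow passed with edgeR at an adjusted p under 0.05 in the comparison where it is said to have changed. Between 6 h and 24 h, 12 of 13 changed, 4 higher and 8 lower, with a list median of -0.40 (of all genes, 72.0% passed, 34.7% higher and 37.4% lower). Npas2 fell by 1.39 (SE 0.143), Hlf by 1.04 (SE 0.0970) and Bhlhe40 by 1.03 (SE 0.125), and Ciart rose by 0.98 (SE 0.106). Tef and Hlf, which are close relatives of Dbp, fell as Dbp did.

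Under normoxia against 24 h controls all 13 changed, 5 higher and 8 lower, with a median of -0.78 (of all genes, 82.0% passed, 42.4% higher and 39.7% lower). The 4 repressors fell the furthest. Ciart, a repressor of the Arntl and Clock dimer, averaged 42.7 CPM in C57BL/6J controls and 1.70 CPM under normoxia, and 42.3 against 0.700 CPM in DBA/2J (log2 fold change -5.21, SE 0.210). Bhlhe41 changed by -3.98 (SE 0.105), Bhlhe40 by -3.42 (SE 0.101) and Nfil3 by -3.10 (SE 0.120). Csnk1e, the casein kinase 1 epsilon gene, fell by 2.92. Those that rose were Npas2, Tef, Hlf, Fbxl21 and Btrc, by between 0.83 for Btrc and 1.86 for Npas2, named with Csnk1e after their values were seen. Tef and Hlf both rose by 1.59.

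Under normoxia-hyperoxia against 24 h controls 9 of 13 changed, 5 higher and 4 lower, with a median of 0.04, a share that passed close to the 68.2% of all genes (34.1% higher and 34.1% lower). Ciart stayed lower at -1.82 (SE 0.208) and Bhlhe41 at -0.69 (SE 0.124), while Npas2 was higher at 1.33 (SE 0.144) and Bhlhe40 at 0.74 (SE 0.128). Against normoxia all 13 differed, 8 higher and 5 lower (of all genes, 73.5% passed), led by Bhlhe40 at 4.17, Nfil3 at 3.60, Ciart at 3.41 and Bhlhe41 at 3.31.

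**Figure D5:**
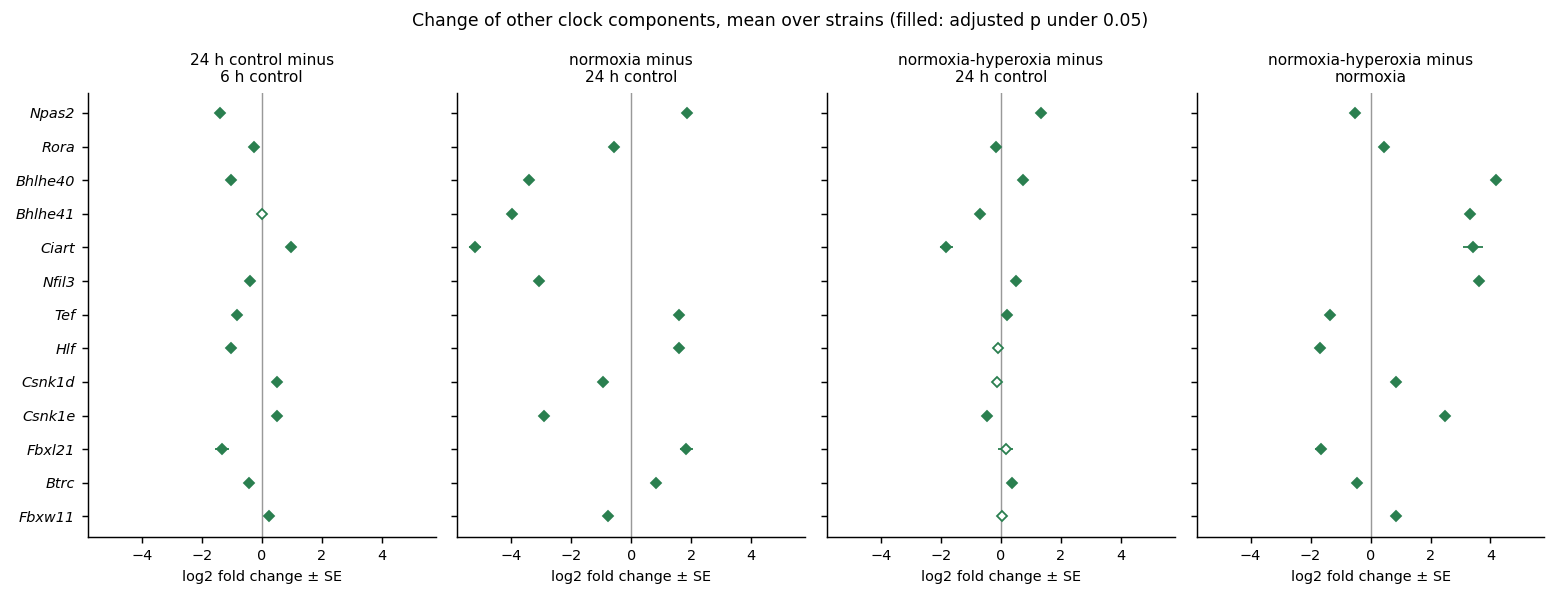
Log2 fold change with its SE, mean over the strains, of 13 other clock components in 4 comparisons. Filled diamonds passed an adjusted p under 0.05. Ciart, Bhlhe41, Bhlhe40 and Nfil3 lie between -5.21 and -3.10 under normoxia against 24 h controls, and on the far right, at 3.31 or more, in normoxia-hyperoxia against normoxia.

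A list of 12 genes held transcripts known as clock outputs, with those of kidney salt and water transport among them. Between 6 h and 24 h, 10 of 12 changed, 2 higher and 8 lower, with a median of -0.98 (of all genes, 72.0% passed, 37.4% lower). Slc9a3, the sodium-proton exchanger of the proximal tubule, fell by 2.79, Usp2, a deubiquitinase gene known for its daily rhythm, by 2.08, Scnn1a, a subunit of the epithelial sodium channel, by 1.62 and Avpr2, the vasopressin receptor gene, by 1.23. Under normoxia against 24 h controls all 12 changed, 6 higher and 6 lower, with a median of -0.03 (of all genes, 82.0% passed). Usp2 rose by 2.67 and Slc9a3 by 2.59, while Edn1, the endothelin 1 gene, changed by -2.52 and Wee1, a cell-cycle kinase gene under E-box control, by -2.30. Under normoxia-hyperoxia against 24 h controls 10 of 12 changed, 8 higher and 2 lower (of all genes, 68.2% passed, 34.1% higher). Slc9a3 was higher by 2.57, Avpr2 by 2.08, Scnn1a by 2.03 and Sgk1, a kinase gene of sodium transport, by 1.83. In the same comparison the principal cell, intercalated cell, distal convoluted tubule and loop of Henle markers were higher and those of the proximal tubule lower or overlapping, with the values given above, and their part in these changes was not tested. All these marker lists were also lower at 24 h than at 6 h. Under normoxia they stood above the 24 h controls, with overlap in DBA/2J for the distal convoluted tubule and loop of Henle. The part of those shifts in the changes of the output genes was not tested either.

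Genes that respond to cAMP and to glucocorticoids, signals known to act on Per1 and Per2, were followed with 2 lists. Of 6 cAMP-responsive genes, 6 fell under normoxia against 24 h controls, with a median of -3.39 (all genes 0.05, with 82.0% passing and 39.7% lower). Nr4a3 changed by -5.35, Fos by -3.74, Nr4a1 by -3.56 and Nr4a2 by -3.21. Against normoxia, all 6 were higher under normoxia-hyperoxia (37% of all genes were), with a median of 4.33 and Fos at 7.44. Under normoxia-hyperoxia against 24 h controls 4 of 6 were higher (34.1% of all genes), led by Fos at 3.69, while neither Per1 nor Per2 passed. Of 7 glucocorticoid-responsive genes, 3 rose and 4 fell under normoxia (42.4% and 39.7% of all genes), with Cebpd at -3.10, Zbtb16 at -2.08, Dusp1 at -1.74 and Tsc22d3 at 1.30. Under normoxia-hyperoxia against 24 h controls 5 rose and 1 fell (34.1% and 34.1% of all genes), led by Sgk1 at 1.83 and Cebpd at 1.63. Between 6 h and 24 h, 4 of the 6 cAMP-responsive genes fell and 1 rose, with Fos at -2.12, Nr4a1 at -1.75, Nr4a3 at -0.88 and Crem at 0.33. In that comparison, 6 of these 7 glucocorticoid-responsive genes fell and none rose (37.4% and 34.7% of all genes), led by Sgk1 at -1.02 and Tsc22d3 at -0.94. Sgk1 and Tsc22d3 stand in the list of clock outputs too.

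Oxygen-responsive genes were followed with a list of 8. Of these, 6 fell and 1 rose under normoxia against 24 h controls (39.7% and 42.4% of all genes), with Ankrd37 at -5.27, Slc2a1, a glucose transporter gene, at -4.63, Egln3, an oxygen sensor gene, at -3.54 and Bnip3 at -2.07. The 1 that rose was Car9, at 0.65, named after its values were seen. Under normoxia-hyperoxia against 24 h controls 6 of 8 fell and none rose (34.1% and 34.1% of all genes), led by Car9 at -4.16 and Ankrd37 at -2.27. Against normoxia, 6 of 8 were higher and 1 lower under normoxia-hyperoxia (37% and 36.5% of all genes), with Slc2a1 at 4.74, Ankrd37 at 3.01, Egln3 at 1.87 and Car9 at -4.79. Between 6 h and 24 h of control culture 5 rose and 2 fell (34.7% and 37.4% of all genes), with Ankrd37 at 1.80, Egln3 at 1.26, Car9 at 1.09 and Bnip3 at 1.01. Slices of the condition that the labels call an ischemia model held lower levels of 6 of these transcripts than the controls. The link between these genes and the clock genes was not tested.

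The pattern of a member over the 16 group means was compared with that of 12243 genes. For Nr1d1 the 3 closest genes were Smad7 (Pearson r = 0.991), Pfkfb3 (0.989) and Sik1 (0.986), and for Per1 they were Sik1 (0.987), Pacsin2 (0.982) and C77080 (0.981). For Per2 they were Rusc1 (0.983), Cdc42se1 (0.981) and Ptp4a1 (0.976). Dbp was closest to Plekha1 (0.960), Pkia (0.915) and C7 (0.912). Arntl had no match as close, with Scfd2 at 0.853, Dennd5b at 0.803 and Igf2r at 0.796. Among the members, Per1 and Nr1d1 had an r of 0.981 and Per2 and Cry2 one of 0.990 over the 16 groups, while Arntl and Dbp had one of -0.24. These correlations are descriptions over groups that share strains and conditions, and they were not recomputed without the normoxia groups.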

How the data were processed

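Raw counts per gene for 48 libraries had been deposited by the authors. Per the submitters' processing notes, the tools included bcl2fastq 2.20.0, FastQC 0.11.8, STAR 2.7.9a and featureCounts 1.5.1, on GRCm38, and per the labels' protocols the libraries came from a stranded mRNA kit. The counting strand setting and the annotation release are not given in the sources used here. The members and gene lists were chosen with earlier results of these data known.

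Each comparison was fitted to the counts of its 12 libraries as 4 group means with edgeR 4.0.16 (R 4.3.3), using filterByExpr, TMM factors and the robust quasi-likelihood test (8 residual degrees of freedom). Changes were averaged over the strains or set against each other, and p-values were adjusted by Benjamini-Hochberg over all genes. Alternatives were DESeq2 1.42.0, its size factors (RLE), no filter, all 48 libraries, a replicate block, each library left out and, added after seeing the data, library totals. From each list, up to 4 genes per comparison were named: those that passed, with a mean log2 CPM of at least 1, and the largest changes. Some genes of the list of other clock components are not reported here. Lengths and positions came from GENCODE M21 and promoters from RefSeq. Plain correlations over group means carry no test.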

Additional observations from a re-analysis of the deposited data

Results flagged for a closer look

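For 8 results the change differed between the strains by a test of the difference itself (edgeR's strain interaction, DBA/2J change minus C57BL/6J change on the log2 scale). For normoxia against 24 h controls these were Arntl at 0.75, Per3 at -1.25 and Nr1d2 at -0.55. Arntl rose in DBA/2J and was at -0.21 in C57BL/6J, Per3 rose more in C57BL/6J, and Nr1d2 fell more in DBA/2J. For normoxia-hyperoxia against normoxia they were Arntl at -0.80, Clock at -0.37, Per2 at -0.95, Per3 at 0.82 and Cry1 at -1.0. Of these, Clock and Per3 each lost their call on removing any of 9 single libraries of the 12, Clock, Cry1 and Arntl did not pass with library totals, and Clock and Cry1 did not pass with all 48 libraries. The normoxia libraries enter both sets, so Arntl and Per3 appear in both through the same libraries.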

How the results depend on the processing

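With library totals in place of TMM, 4 members passed for 24 h against 6 h and 7 for normoxia-hyperoxia against 24 h controls. Of all genes, 12549 of 16962 and 12046 of 17256 passed in these fits. Strain interactions passed for 6 members without the filter and 5 with DESeq2 (normoxia against 24 h controls), for 3 without the filter (normoxia-hyperoxia against 24 h controls), and for 2 with totals and 3 with all 48 libraries (normoxia-hyperoxia against normoxia). The 24 h strain difference passed for 3 members without the filter. No share of all genes stands beside these strain counts. Changes of members that had not passed turned sign under totals for Arntl (0.0895 for 24 h against 6 h, -0.11 and -0.0165 for normoxia and normoxia-hyperoxia against 24 h controls), Dbp (-0.0792 for normoxia-hyperoxia against 24 h controls), Clock (0.0145 for normoxia-hyperoxia against normoxia) and Nr1d2 (0.0167 for normoxia-hyperoxia against 6 h controls). Without the filter Dbp turned to 0.0094 (normoxia against 24 h controls). Arntl for normoxia against 6 h controls turned to 0.0052 with RLE factors, 0.0194 without the filter, 0.0048 with DESeq2 and 0.0118 with all 48 libraries.

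Leaving out each library in turn gave -0.26 to 0.13 for Dbp in normoxia against 24 h controls and -0.0189 to 0.37 in normoxia-hyperoxia against normoxia. For Arntl it gave -0.0761 to 0.0585 in the latter, -0.0656 to 0.0713 in normoxia against 6 h controls and -0.0203 to 0.11 in normoxia-hyperoxia against 6 h controls, and for Nr1d2 in that comparison -0.0754 to 0.0754. Members with a strain interaction numbered 0 to 1 (24 h against 6 h), 3 to 6 (normoxia against 24 h controls) and 2 to 6 (normoxia-hyperoxia against normoxia). Over all genes these interactions numbered 46 to 226, 1860 to 2700 and 2240 to 3364. Members with a strain difference numbered 3 to 7 at 6 h, 0 to 1 at 24 h and 3 to 7 under normoxia-hyperoxia. Over all genes these differences numbered 3009 to 5267, 2627 to 4232 and 3181 to 4495. The causes were not tested.

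Replicate numbers were not taken to pair the samples, since in no comparison did all 6 same-numbered pairs correlate above 0.1 in their deviations. All 3 pairs of 1 strain did in some: DBA/2J in both oxygen conditions against 6 h controls, normoxia-hyperoxia against normoxia and tunicamycin at 24 h, and C57BL/6J in normoxia-hyperoxia against 24 h controls and tunicamycin at 6 h. For normoxia against 6 h controls all 6 correlated best with their own number (lowest r 0.0667), a hint from the data and not the design. It was so for 5 of 6 pairs in normoxia-hyperoxia against 24 h controls, normoxia-hyperoxia against normoxia and tunicamycin at 6 h. In the other comparisons it was so for 2 to 4 of 6. The p-values given, those of the drugs included, take no account of such sharing unless the block is named. With the replicate block Per1 (edgeR adjusted p = 0.000327) and Nr1d1 (edgeR adjusted p = 0.0211) also passed for normoxia-hyperoxia against 24 h controls, 6 members in all, and Arntl (edgeR adjusted p = 0.0457) for normoxia against 24 h controls, 9 in all, while Nr1d2 turned to 0.0012 for normoxia-hyperoxia against 6 h controls. The member counts under the block have no share of all genes beside them. Over all genes, tunicamycin at 24 h gave 395 genes without the filter and 536 with DESeq2, against 233, and the strain interactions for 24 h against 6 h gave 817 and 332 against 117, with 71 under the block. Those for normoxia-hyperoxia against 24 h controls gave 1156, 682 and 618, and 409 with all 48 libraries, against 247. Leaving out each library gave 78 (without C57BL/6J tunicamycin replicate 1) to 344 (without its replicate 3), 46 (without C57BL/6J 24 h replicate 3) to 226 (without C57BL/6J 6 h replicate 1), and 103 (without DBA/2J 24 h replicate 3) to 524 (without its replicate 2) genes for these 3 counts. Without the shallowest library, of 5619309 counts, 3 members passed for normoxia-hyperoxia against 24 h controls.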

Other observations

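Dbp was low in replicate 3 of DBA/2J in each 6 h group, at 25.2 CPM in controls, 26.3 CPM with tunicamycin and 30.1 CPM with cyclosporin A, where the other 6 libraries of those groups ranged from 39.9 to 57.3 CPM. Under normoxia, replicate 1 was the highest of its group for Dbp in both strains, with 53.3 CPM for C57BL/6J and 21.6 for DBA/2J.

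The spread between libraries of a group differed among the clock genes. The pooled SD on the log2 scale over the 16 groups was 0.10 for Clock, 0.15 for Nr1d2, 0.17 for Arntl, 0.22 for Per2, 0.23 for Per3, 0.24 for Nr1d1, 0.30 for Cry1, 0.30 for Cry2, 0.35 for Per1 and 0.36 for Dbp, with a median of 0.24 over 18719 genes. Clock had a smaller spread than most genes, with 7.33% of genes below it, and Dbp a larger one, with 64.2% below it.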
